A study of Mus musculus with 21 samples.

Results

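Claudins are tetraspan proteins of the tight junction, the seal between neighbouring epithelial cells. The members described here are 10 claudin genes, Cldn1, Cldn2, Cldn3, Cldn4, Cldn6, Cldn7, Cldn9, Cldn12, Cldn18 and Cldn23, taken by symbol from the 34478 gene rows of a table of normalized RNA-sequencing counts, which holds 22 claudin genes in all. Some claudins, such as Cldn3, Cldn4 and Cldn7, tighten the barrier, whereas Cldn2 forms a channel for cations and water. Occludin (Ocln) and the tricellular proteins lie beside claudins in the membrane, and the zonula occludens proteins (Tjp1 and its relatives) tie them to actin. Cldn6 belongs mainly to embryonic epithelia and stem cells, and Cldn18 to stomach and lung, and both have drawn interest as surface markers of tumors.

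The 6 primary murine pancreatic ductal adenocarcinoma (PDAC) lines analysed here, #3, #4, #6, #7, #9 and #10, came from tumors of mice that carry Ptf1awt/Cre and Trp53loxP/loxP, in which Cre expressed from the Ptf1a locus of the pancreas removes Trp53; all groups share this genotype. Parental cells were never treated (n = 6 lines), resistant cells were grown in the MEK inhibitor trametinib at 100x their IC50 after stepwise dose increases (n = 6), and reverting cells were resistant cells passaged without drug, termed P5 (n = 3, lines #3, #7 and #9) and P12 (n = 6). The labels of the P5 samples of lines #7 and #9 state 12 drug-free passages where their names say P5, and the name is kept here. Each line contributed 1 library to a state, so the lines are the replicates, and the study describes the resistant populations it examined by genome sequencing as grown out from a single clone.

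Values are normalized counts, which the authors scaled between samples. Each sample rested on 24.1 to 42.6 M reads (M for mega), judged from the spacing of its lowest values, and a floor of 3 reads equalled 2.31 to 4.07 normalized counts; such floors and the intervals below cover counting error only. Drug exposure showed in the MAPK target Spry4, which ran from 619 to 1378 normalized counts in parental, from 0 to 7.12 in resistant and from 684 to 2724 in P12 cells. The epithelial keratin Krt8 was present in all parental lines, though at 546 normalized counts in line #9 against a median of 79653. The summed level of 10 ductal epithelial markers had a median of 258195 normalized counts in parental (18463 to 297945), 62763 in resistant (1824 to 212662) and 52984 in P12 cells (4069 to 214018). Unlike that sum, the ductal marker Sox9 had a higher median in P12 than in parental cells (2923 against 1541). The sum of 6 fibroblast markers was 475 in parental (100.4 to 8875), 89275 in resistant (1943 to 337721) and 22639 in P12 cells (226 to 149373). Its members were uneven, with resistant medians of 36728.5 for Dcn, 29184 for Col1a1, 5107 for Acta2, 67.6 for Pdgfrb, 52.4 for Pdgfra and 0 for Lum. Sums of immune (131 to 413), acinar (2.39 to 67.9) and endocrine markers (0 to 62.6) stayed low in all samples. The endothelial sum ran from 17.2 to 890, and its member Kdr reached 865 in resistant against 83.7 at most in parental cells. The part of any of these lists in the claudin results was not tested. In bulk RNA, fewer cells of a type and less RNA per cell cannot be told apart.

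Start-site sequences are shown for the claudins that fell together, Cldn6, Cldn4 and Cldn7, and for Cldn2, which was high again after withdrawal in lines #7 and #10. They come from RefSeq (GRCm38.p6), run from 250 bases before to 50 bases after the start of transcription, and were found for 8 of the 10 genes, with 12 start sites. Capitals mark the E-box CAGGTG, read on either strand (CACCTG on the other), the letters that zinc-finger repressors of epithelial genes such as Snai1 and Zeb1 are known to bind. The Cldn6 window is chr17:23679115-23679414 on the plus strand, Cldn4 is chr5:134946885-134947184 on the minus strand, the second start of Cldn7 is chr11:69965171-69965470 on the plus strand and Cldn2 is chrX:139800558-139800857 on the plus strand.
Cldn6: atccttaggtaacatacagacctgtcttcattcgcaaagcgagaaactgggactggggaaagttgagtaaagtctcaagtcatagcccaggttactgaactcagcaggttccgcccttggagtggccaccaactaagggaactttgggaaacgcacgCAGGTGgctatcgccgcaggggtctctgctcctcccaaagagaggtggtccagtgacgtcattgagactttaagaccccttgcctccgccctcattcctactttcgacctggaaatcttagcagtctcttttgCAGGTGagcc
Cldn4: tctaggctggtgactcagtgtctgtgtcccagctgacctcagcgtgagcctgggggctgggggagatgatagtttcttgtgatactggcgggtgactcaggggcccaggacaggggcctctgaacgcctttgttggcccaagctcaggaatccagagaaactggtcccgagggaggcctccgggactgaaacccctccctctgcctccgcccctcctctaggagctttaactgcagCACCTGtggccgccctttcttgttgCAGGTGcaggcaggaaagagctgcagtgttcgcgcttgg
Cldn7: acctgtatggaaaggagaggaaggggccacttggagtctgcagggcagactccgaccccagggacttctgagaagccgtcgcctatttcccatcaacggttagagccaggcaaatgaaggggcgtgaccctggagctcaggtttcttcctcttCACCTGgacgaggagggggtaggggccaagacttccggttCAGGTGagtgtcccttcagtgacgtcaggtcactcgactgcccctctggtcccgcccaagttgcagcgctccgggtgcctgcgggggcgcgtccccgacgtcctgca
Cldn2: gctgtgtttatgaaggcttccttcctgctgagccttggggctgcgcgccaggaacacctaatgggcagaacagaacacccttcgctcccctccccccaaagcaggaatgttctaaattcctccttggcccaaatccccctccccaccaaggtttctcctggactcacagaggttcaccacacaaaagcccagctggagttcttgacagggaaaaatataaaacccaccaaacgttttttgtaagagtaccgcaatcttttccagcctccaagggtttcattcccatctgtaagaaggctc
The first letters of the E-boxes lie 93 bases before and 40 after the start in Cldn6, 14 before and 11 after in Cldn4, and 97 and 57 before the second start of Cldn7. Cldn3 had 1 E-box, 31 bases after its start, and Cldn1, Cldn2, Cldn12, Cldn18 and the first start of Cldn7 had none. Among all 32851 RefSeq start-site windows of this length, 20.2% held at least 1. The AP-1 motif TGANTCA, which overlaps none of the E-boxes, occurred 2 times in Cldn4 and in 7.81% of all windows, and TATAAA occurred 1 time in Cldn2 and in 13.6%. A letter match describes these windows and shows no binding.

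In the genome (GRCm38, GENCODE M21), Cldn6 (chr17:23679249-23682446, plus strand) lies next to Cldn9 (chr17:23682584-23684026, minus strand), and Cldn4 (chr5:134945119-134946934, minus strand) lies beside Cldn3 (chr5:134986214-134987472, plus strand). Cldn7 is at chr11:69964779-69967885 and Cldn2 at chrX:139800828-139811386, both on the plus strand, and all of them are protein coding. Values are sums over all transcripts of a gene, so no exon or untranslated region is singled out. Only 7 of the stretches of 31 bases were shared by the transcripts of Cldn6 and Cldn9 and 5 by those of Cldn3 and Cldn4, and the other members shared none with another claudin.

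Cldn6 was lost from every line under trametinib and did not come back without it. Parental cells held 4313 normalized counts in line #3, 4919 in #4, 2189 in #6, 5971 in #7, 1048 in #9 and 5182 in #10. Resistant cells of lines #3, #4, #6 and #10 were at 0, and lines #7 and #9 were at 4.07 and 1.26. All 3 P5 samples were at 0, as were the P12 samples of every line but #10, which held 4.15. No sample outside the parental state came within reach of the lowest parental one. The mean fell from 3937 ± 1908 normalized counts (SD, n = 6) to 0.889 ± 1.64 in resistant and 0.691 ± 1.69 in P12 cells (both n = 6). Against the floor of 3 reads in each library, Cldn6 was at least 608-fold to at least 1949-fold lower in the 4 resistant lines at 0, and at least 288-fold to at least 1941-fold lower in the 5 P12 lines at 0. In line #7, where 4 reads remained under drug, the parental level was 1466-fold higher (95% counting interval 573 to 5383), and in P12 of line #10, with 5 reads, it was 1250-fold higher (535 to 3849). In resistant line #9, with 1 read, the ratio was 834 (150 to 33052).

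**Figure D1:**
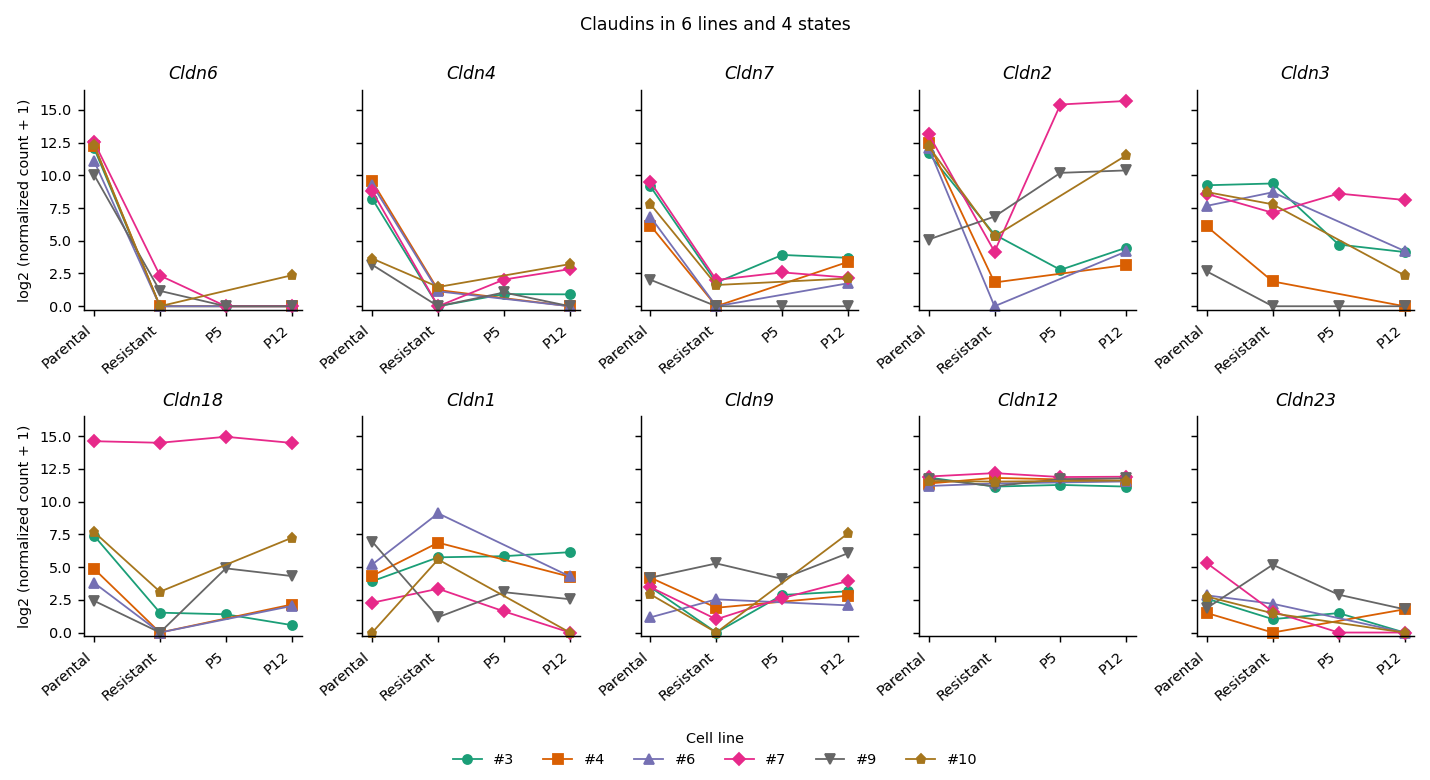
Level of each of the 10 claudins as log2 of the normalized count plus 1 (vertical axis) in parental, resistant, P5 and P12 cells (horizontal axis), with 1 marker and colour for each of the 6 lines; lines without a P5 sample run straight from resistant to P12. Cldn6 drops from between 1048 and 5971 normalized counts to between 0 and 4.15 in all later states, whereas Cldn2 is high again at P12 in lines #7 and #10 and above its parental level in line #9, and Cldn12 stays near its parental level.

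In a limma fit of all 21 samples, Cldn6 was lower by -11.14 on the log2 scale in resistant than in parental cells (SE 0.54, adjusted p = 8.79e-11), by -11.33 in P12 (SE 0.54, adjusted p = 1.27e-10) and by -11.73 in P5 (SE 0.66, adjusted p = 2.94e-09). P12 and resistant cells differed by -0.19 (SE 0.54, adjusted p = 0.894, limma). Fitted values of a gene at 0 depend on the pseudocount of 1, so the bounds above carry the size. With the cell line as a replicate block both losses remained called. With only the P5 and parental samples in the fit and the cell line as a block, the P5 difference was no longer called (adjusted p = 0.438, the highest of its alternatives). Genes used by every cell, such as Actb, Gapdh and Tbp, were at 0 in none of the 21 samples. That shows that no sample failed as a whole and does not test a 0 of a single gene.

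Cldn4 and Cldn7, barrier-tightening claudins of simple epithelia, fell with Cldn6. Parental Cldn4 was at 295, 745, 625 and 438 normalized counts in lines #3, #4, #6 and #7, but only at 7.96 in line #9 and 11.5 in line #10. All 6 resistant samples lay between 0 and 1.77, at or under the floor. P5 cells held 0.902, 3.10 and 1.07 in lines #3, #7 and #9, at or under the floor as well. At P12, Cldn4 was at 0 in lines #4, #6 and #9, at 0.876 in #3, 6.15 in #7 and 8.30 in #10. The groups of parental and resistant cells did not overlap, whereas P12 of line #10 lay above parental line #9. In the 4 lines with a high parental level, the parental sample was at least 95.1-fold and at least 144-fold higher than resistant #3 and #7, which were at 0, and 549-fold (98.3 to 21723) and 521-fold (93.0 to 20592) higher than #4 and #6, each with 1 read. In line #10, P12 held 10 reads against 14 in parental cells, a ratio of 1.38 (0.570 to 3.47), so no lasting loss was detectable there at this depth. The limma difference was -6.46 in resistant (SE 1.01, adjusted p = 0.000373) and -5.94 in P12 against parental cells (SE 1.01, adjusted p = 0.00931). P5 and parental cells differed by -5.77 (SE 1.24, adjusted p = 0.106, limma), which was not called. The P12 call rested close to the threshold: it was lost with a pseudocount of 8 (adjusted p = 0.0187), no filter on low values (0.0111), a mean of at least 100 (0.0596) and no trend (0.0103). It was also lost when P12 and parental samples were fitted alone (0.0551, or 0.0641 blocked by line) and without line #3 (0.118), #4 (0.0915), #6 (0.115) or #7 (0.0327). Over all alternatives the adjusted p ran from 0.00338 to 0.118 (limma).

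Cldn7 was at 566, 70.7, 112, 717, 3.06 and 220.1 normalized counts in parental lines #3, #4, #6, #7, #9 and #10. Resistant cells held between 0 and 3.03, each at or under the floor and each below its own parental sample. P5 cells held 14.1, 5.00 and 0 in lines #3, #7 and #9 (-4.74 against parental cells, SE 1.25, adjusted p = 0.199, limma). In P12, Cldn7 was at 12.0 in line #3, 9.48 in #4, 2.37 in #6, 3.56 in #7, 0 in #9 and 3.35 in #10. Thus 5 of 6 lines stood above their resistant sample, by 3.39 on the log2 scale at most, and all 6 stood below their parental sample. From resistant to P12 cells the reads were 3 and 3 in line #7, 2 and 4 in #10 and 0 and 3 in #6. A rise in those lines cannot be told from counting error. The parental-to-P12 ratio ran from 7.46 (3.55 to 17.6) in line #4 to 202 (79.5 to 1132) in line #7. In line #9 no change can be read, since the parental sample itself held 2 reads. The limma difference from parental cells was -6.00 in resistant (SE 1.02, adjusted p = 0.000781) and -4.71 in P12 (SE 1.02, adjusted p = 0.0430). Blocking on the cell line, the P12 difference was called (adjusted p = 0.00272), as it was without line #9 (0.00147); over all alternatives it ran from 0.00147 to 0.231. P12 and resistant cells differed by 1.29 (SE 1.02, adjusted p = 0.544, limma).

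Of the 10 claudins, 3 were called lower in resistant cells (Cldn4, Cldn6 and Cldn7) and 0 higher, where 2.73% of all 19300 genes tested were lower and 2.57% higher at an adjusted p below 0.01 and a log2 difference beyond 1. The 3 were also the claudins whose resistant samples all lay below all parental ones, as for 3.16% of genes tested. For Cldn7 that order rests on 3.03 normalized counts in resistant line #7 against 3.06 in parental line #9. Both values are at or under the floor, so this separation cannot be told from counting error. Between P12 and parental cells 2 were called lower (Cldn4 and Cldn6), against 0.0881% of genes tested. With the cell line as a block 3 were called lower there (Cldn7 besides), against 0.311%. Cldn6 alone did not overlap there, against 0.731%. Between P5 and parental cells 1 was called lower (Cldn6), against 0.0207%. From resistant to P12 cells 0 claudins were called, where 0.85% of genes were lower and 1.28% higher, and from resistant to P5 cells 0 were called, where 0.378% of genes were called in either direction. At an unadjusted p below 0.05, limma had 1 claudin (Cldn9, higher) from resistant to P12 and 0 from resistant to P5 cells, and 0 higher in resistant than in parental cells. With the block and the same unadjusted threshold, 2 were higher (Cldn2 and Cldn9) and 2 lower (Cldn1 and Cldn3) from resistant to P12 cells, and 0 in both other comparisons; none of these 4 was called with the block. Cldn23 did not reach 10 normalized counts in 3 samples and was not tested. Cldn4 and Cldn6 passed that filter through their parental samples alone, and Cldn7, which reached 10 in 5 parental samples and in 1 each of P5 and P12, would not have passed without them. The share of all 3 called claudins among tested genes therefore supports nothing. The comparisons with parental cells share those parental samples and are not independent of each other. The median log2 difference over the 9 tested claudins was -3.61 in resistant against parental cells, beside -0.00491 over all genes. In P12 against parental cells it was -2.88, beside 0.03. These medians rest on the same filtered members, chosen with earlier results known, so they support nothing either.

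**Figure D2:**
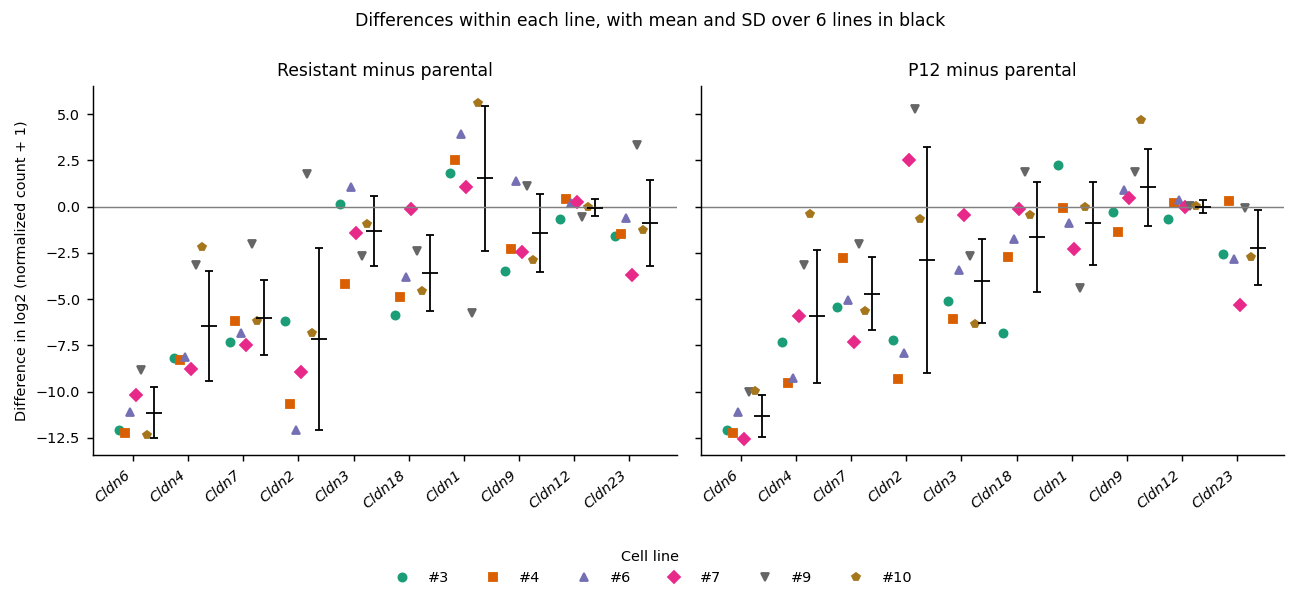
Difference in log2 (normalized count plus 1) from the parental sample of the same line (vertical axis) for each claudin (horizontal axis) in resistant (left) and P12 cells (right); coloured markers are single lines and the black mark and bar give mean and SD over 6 lines. Cldn6, Cldn4 and Cldn7 lie below 0 in every line on both sides, while Cldn2 lies below 0 in 5 of 6 lines on the left and spans -9.31 to 5.28 on the right.

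Cldn2, the cation and water channel of leaky epithelia, was lower under drug in 5 of 6 lines and high again after withdrawal in lines #7 and #10. Parental cells held 3265, 5653, 4377, 8999 and 4710 normalized counts in lines #3, #4, #6, #7 and #10, and 33.2 in line #9. Resistant cells were at 43.4, 2.52, 0, 17.0 and 39.5 in the same 5 lines, so each was lower, by 75.2-fold (55.6 to 105) in line #3, 119-fold (88.1 to 162) in line #10, 529-fold (325 to 893) in line #7, 2242-fold (577 to 17214, on 2 reads) in line #4 and at least 1215-fold in line #6. Line #9 went the other way, to 114 normalized counts. At P12, line #7 reached 52298 and line #10 reached 2943, and line #9 stood at 1324, above both its resistant and its parental sample. Lines #3, #4 and #6 stayed at 21.2, 7.88 and 17.2. P5 showed the same split, with 43299 in line #7, 1163 in line #9 and 5.86 in line #3. Since the labels of P5 in lines #7 and #9 state 12 drug-free passages, how early Cldn2 rose there cannot be told. Line #7 thus ended above its parental level, by 2.54 on the log2 scale at P12, and line #10 stood 1.60-fold (1.53 to 1.67) below its own.

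No Cldn2 comparison was called in the fit of all samples. In limma, resistant and parental cells differed by -7.17 (SE 2.21, adjusted p = 0.0331), and by the compared states alone the difference passed (adjusted p = 0.00699, the lowest of its alternatives, with 0.132 as the highest). P12 and resistant cells differed by 4.29 (SE 2.21, adjusted p = 0.297), higher in 5 of 6 lines, and P12 and parental cells by -2.88 (SE 2.21, adjusted p = 0.554), lower in 4 of 6. With the cell line as a block the adjusted p values were 0.0135, 0.165 and 0.381. A difference between the lines with high Cldn2 at P12 and the others was not tested, as each line has 1 library per state.

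Cldn3, the close relative of Cldn4 on the same stretch of chromosome 5, was lower at P12 than in parental cells in every line, and in lines #3, #6 and #10 it was far lower at P12 than under drug. It stood at 602, 67.3, 202, 381, 5.32 and 420.0 normalized counts in parental lines #3, #4, #6, #7, #9 and #10, and at 662, 2.72, 415, 140, 0 and 219 under drug. Lines #3 and #6 were thus higher than their parental sample while resistant. After withdrawal Cldn3 was at 16.6 in line #3, 0 in #4, 17.7 in #6, 276 in #7, 0 in #9 and 4.14 in #10. P12 cells were lower than parental cells in 6 of 6 lines, by 1.38-fold (1.19 to 1.61) in line #7, 11.4-fold (7.32 to 18.8) in #6, 36.3-fold (23.0 to 60.5) in #3 and 101-fold (43.1 to 313) in #10. Line #4 was at least 18.6-fold lower. Line #9 was at least 1.46-fold lower, on only 4 parental reads, so it adds little to that count. The drop was present at P5 in line #3 (25.2) and absent in line #7 (388). Over all lines the P12 difference was -4.02 (SE 1.81, adjusted p = 0.296, limma) and was called neither there nor with the block (adjusted p = 0.0217, the lowest of its alternatives). The resistant difference was -1.34 (SE 1.81, adjusted p = 0.676, limma). P12 and resistant cells differed by -2.67 (SE 1.81, adjusted p = 0.456, limma; 0.0563 with the block); line #7 was higher at P12 than under drug, line #9 was at 0 in both and line #4 was at or under the floor in both.

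Cldn18 was a claudin of line #7, where it held 24997, 22978, 31592 and 22820 normalized counts in parental, resistant, P5 and P12 cells. In the other 5 lines it ran from 4.37 to 204 in parental and from 0 to 7.68 in resistant cells. At P12 it was back at 149 in line #10 and at 18.9 in line #9, but between 0.484 and 3.41 in lines #3, #4 and #6. Resistant cells were lower in 6 of 6 lines, in line #7 by only -0.12 on the log2 scale, with a mean difference of -3.61 (SE 2.88, adjusted p = 0.442, limma; 0.0104 with the cell line as a block, the lowest of its alternatives). Cldn12, which departs from most claudins in lacking the usual PDZ-binding end, was the steady member, with 2261 to 4614 normalized counts over all 21 samples and differences between -0.07 and 0.06 among parental, resistant and P12 cells (SE 0.19, adjusted p from 0.840 to 0.978, limma).

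Cldn1, Cldn9 and Cldn23 were low. Cldn1, a barrier claudin of skin and many epithelia, was higher under drug in 5 of 6 lines, the top being 548 normalized counts in line #6 against 35.7 in its parental sample, and lower in line #9, from 122 to 1.25. At P12 it was at 18.2 and 18.5 in lines #4 and #6 and 0 in #7 and #10, but at 69.3 in line #3. Its mean resistant difference was 1.52 (SE 1.37, adjusted p = 0.503, limma). Cldn9, the neighbour of Cldn6, was between 1.23 and 17.3 in parental and between 0 and 37.7 in resistant cells, and at P12 it reached 189.6 in line #10 and 65.8 in line #9 but at most 14.3 elsewhere. From resistant to P12 cells it was higher in 5 of 6 lines, by 2.48 (SE 0.95, adjusted p = 0.136, limma). Cldn23 exceeded 10 normalized counts in 2 samples, parental line #7 (38.4) and resistant line #9 (35.1).

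Set per kilobase of exon, so that genes can be compared, the claudin make-up changed with the state. Cldn6 had the highest level of all 22 claudin genes in parental lines #3, #4 and #10 (46.5%, 49.2% and 53.1% of the summed claudin level) and Cldn2 just led it in line #6 (34.6% against 33.4%). In parental line #7 Cldn18 led (41.1%), and in line #9 Cldn12 (52.8%) stood before Cldn6 (39.4%). Under drug, Cldn15 took 65.0%, 72.8% and 63.8% in lines #3, #4 and #6, Cldn12 led in lines #9 and #10 (77.5% and 55.1%), and Cldn18 in line #7 (80.6%). At P12, Cldn2 led in lines #7 (71.4%) and #10 (47.0%), Cldn12 in lines #3, #4 and #9, and Cldn15 just before Cldn12 in line #6 (47.6% against 47.0%). The summed level itself was lower at P12 than under drug in lines #3, #4 and #6 and higher in #7, #9 and #10.

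**Figure D3:**
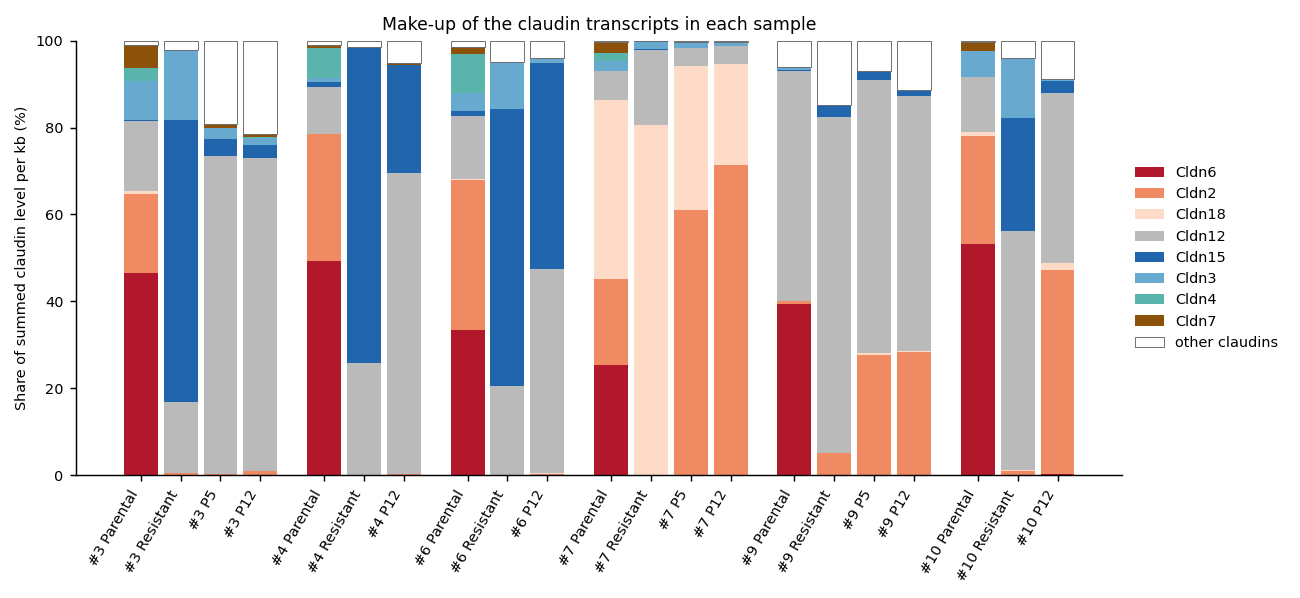
Share of the summed claudin level per kilobase of exon taken by each claudin (vertical axis, %) in each of the 21 samples (horizontal axis, by line and state); white is the sum of all other claudin genes. Cldn6 takes 25.4% to 53.1% of every parental bar and is not visible afterwards, Cldn15 fills most of the resistant bars of lines #3, #4 and #6, and Cldn2 is seen at P12 in lines #7, #9 and #10, in line #9 with 28.3% against 0.646% in its parental sample.

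Among claudins outside the 10, 11 of a list of 18 were in the table and 5 could be tested. Cldn15, a cation-channel claudin of the gut, was higher under drug than in parental cells in every line. It went from 29.3 to 4509 normalized counts in line #3, 121 to 5088 in #4, 96.4 to 4170 in #6 and 13.5 to 701 in #10. In #7 it went only from 23.0 to 55.4 and in #9 from 14.7 to 40.9. The difference was 4.38 (SE 1.21, adjusted p = 0.0199, limma), called with the cell line as a block (0.000829). At P12 it stood at 47.9, 551, 1510, 36.4, 41.9 and 106 in lines #3, #4, #6, #7, #9 and #10. Cldn20 alone was called higher in P12 than in resistant cells, against 1.28% of genes tested (3.56, SE 0.71, adjusted p = 0.00517, limma), from 0 to 1.78 up to 8.80 to 27.4 normalized counts.

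The other membrane proteins of the tight junction fell in part. Of 12 listed, 2 were called lower and 0 higher in resistant cells (4 and 1 at an unadjusted p below 0.05, limma), where 2.73% of all genes tested were lower and 2.57% higher. The list median was -1.73 on the log2 scale, beside -0.00491 over all genes. This list too was chosen with earlier results of these data known, so its median supports nothing. Ocln fell in every line, from between 526 and 2969 normalized counts to between 2.81 and 49.2, a difference of -6.76 (SE 1.27, adjusted p = 0.00158, limma). At P12 it was at 846 in line #10, near its parental 777, and at 355 in line #7, but between 3.86 and 11.2 in the other 4 lines, and lines #7 and #10 were also among those with high Cldn2 at P12. Ildr1, a tricellular junction protein, fell from a parental range of 1.05 to 90.1 to at most 2.54 in resistant cells (-3.91, SE 0.78, adjusted p = 0.00252, limma) and was at 0 in all 6 P12 samples; it passed the filter on low values through 4 parental samples alone. With the cell line as a block 4 were lower (Marveld2 and Marveld3 besides) and 1 higher (Esam), against 5.6% and 4.85% of genes tested. Of 16 scaffold proteins tested, 1 was called higher and 0 lower in resistant cells, where 2.57% and 2.73% of genes were, and at an unadjusted p below 0.05 limma had 2 higher and 5 lower. Mpdz, a multi-PDZ protein that binds claudin tails, rose from between 1433 and 2242 to between 2996 and 8039 normalized counts (1.60, SE 0.26, adjusted p = 0.00047, limma). With the block 2 scaffold proteins, Magi1 (-1.21, adjusted p = 0.00370, limma) and Patj (-1.42, adjusted p = 0.00441, limma), were called lower beside the higher Mpdz, against 5.6% and 4.85% of genes. Tjp1 differed by -0.70 (SE 0.23, adjusted p = 0.0476, limma). From resistant to P12 and from parental to P12 cells, 0 members of both lists were called in this fit. With the block 3 were lower at P12 than in resistant cells (Cgn, Magi3 and Esam), against 2% of genes tested, and 1 was lower than in parental cells (Patj), against 0.311%. At an unadjusted p below 0.05, limma had 1 membrane and 6 scaffold proteins lower and 0 and 2 higher at P12 than under drug, and 5 and 4 lower and 0 and 1 higher than in parental cells.

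Cdh1 (E-cadherin), which joins neighbouring epithelial cells, was lower in 6 of 6 resistant lines, by -1.70 on the log2 scale in line #7 to -12.84 in line #4, with a mean of -7.11 (SE 1.92, adjusted p = 0.0173, limma; 0.000175 with the block). At P12 it was above the resistant level in 6 of 6 lines, at 18598 normalized counts in line #7 and 14006 in line #10 and between 44.0 and 2808 elsewhere. That difference was not called (3.85, SE 1.92, adjusted p = 0.277, limma, and 0.0180 with the block). Every P12 sample also stayed below its parental sample, from -1.20 in line #10 to -5.21 in line #4 on the log2 scale. In lines #3, #4 and #6, Cdh1 was 5.24, 7.63 and 5.09 higher on the log2 scale at P12 than in resistant cells while Cldn6 was at 0 in both. Epcam, which binds Cldn7 and protects it from degradation, was listed at 0 in every sample but P5 of line #3 (3.61), parental cells included; whether it was not expressed or was missed in the quantification cannot be told from these values.

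Of 13 tested regulators of claudin or junction genes, 2 were called lower in resistant cells and 0 higher, where 2.73% and 2.57% of all genes tested were. With the cell line as a block 5 were called lower and 0 higher, against 5.6% and 4.85%. At an unadjusted p below 0.05, limma had 5 lower and 2 higher (Zeb2 and Klf4). Cdx2, an intestinal homeobox factor that activates the Cldn2 promoter, went from between 670 and 2086 to between 0 and 40.7 normalized counts (-8.99, SE 0.85, adjusted p = 3.12e-06, limma) and was called higher again at P12 (6.11, SE 0.85, adjusted p = 0.00031) and P5 (5.73, SE 1.04, adjusted p = 0.00753), reaching 381 in line #7, 325 in #10, 279 in #3, 134 in #4, 65.9 in #6 and 27.9 in #9 at P12. Cldn2 at P12 was likewise highest in lines #7 and #10 (52298 and 2943 normalized counts). The other lines held 1324 in #9, 21.2 in #3, 17.2 in #6 and 7.88 in #4, an order that differs from that of Cdx2. A link between Cdx2 and Cldn2 was not tested. Klf5, a zinc-finger factor of epithelial growth, fell from between 2749 and 5574 to between 18.8 and 2011 (-3.77, SE 0.82, adjusted p = 0.00477, limma). Of the repressors that bind E-boxes, none of Snai1, Snai2, Zeb1, Zeb2 and Twist1 was called between resistant or P12 and parental cells, with or without the block. Snai1 was at 1.00 to 289 normalized counts in parental, 39.0 to 750.1 in resistant and 48.1 to 598 in P12 cells. It was higher in 5 of 6 resistant lines by 2.01 (SE 1.04, adjusted p = 0.207, limma; 0.0445 with the block) and in 6 of 6 P12 lines by 3.17 (SE 1.04, adjusted p = 0.153; 0.0222 with the block). Zeb2 was at 65.0 to 1673 in parental, 573 to 1669 in resistant and 519.8 to 2476 in P12 cells, higher in 5 of 6 lines each time, by 1.98 (SE 0.62, adjusted p = 0.0367, limma; 0.0129 with the block) and 2.20 (SE 0.62, adjusted p = 0.111; 0.0307 with the block). Snai2 differed from parental cells by 0.42 and 1.43 and Twist1 by -1.05 and -0.57. Zeb1 differed by 0.21 in resistant (SE 0.40, adjusted p = 0.775, limma) and 0.28 in P12 cells (SE 0.40, adjusted p = 0.771), and Grhl2, an activator of epithelial junction genes, by -0.82 (SE 0.70, adjusted p = 0.481) and 1.36 (SE 0.70, adjusted p = 0.361).

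**Figure D4:**
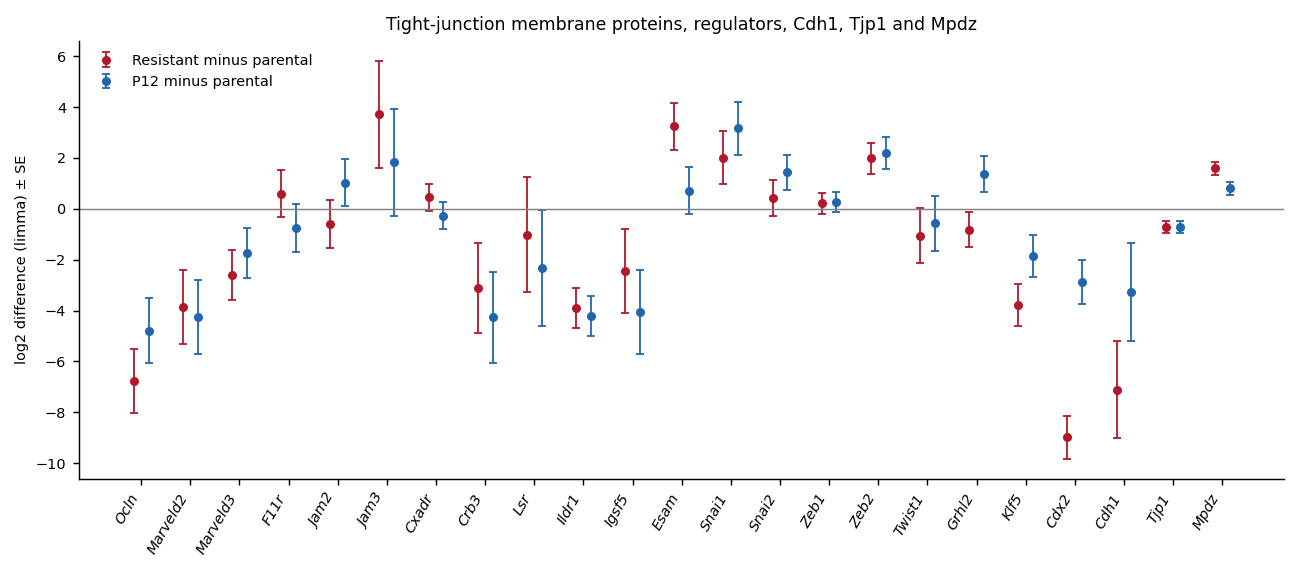
Difference in log2 (normalized count plus 1) from parental cells, from limma, with SE bars (vertical axis) for tested tight-junction membrane proteins, 8 regulators of junction genes whose values are given here, Cdh1, Tjp1 and Mpdz (horizontal axis), in resistant (red) and P12 cells (blue). Cdx2 moves from -8.99 to -2.88 and Cdh1 from -7.11 to -3.26 after withdrawal, while Ildr1 stays near -4 on both.

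The genes around Cldn6 showed no called change. None of its 3 nearest protein-coding neighbours on either side was called. Of all genes tested, 2.73% were called lower and 2.57% higher in resistant cells, and 0.0881% lower in P12 cells. With so few neighbours, the absence of calls therefore shows nothing particular to this locus. Tnfrsf12a, which ends 1781 bases before Cldn6, differed by -0.30 in resistant (SE 0.47, adjusted p = 0.721, limma) and -0.58 in P12 cells (SE 0.47, adjusted p = 0.577, limma). It ran from 5600 to 12304 normalized counts in parental, 1295 to 13130 in resistant and 2426 to 8297 in P12 cells. Thoc6, Hcfc1r1, Pkmyt1, Paqr4 and 1520401A03Rik differed by between -0.29 and 0.11 in resistant cells. Around Cldn3 and Cldn4, Mettl27, Abhd11 and Stx1a were tested and not called, Cldn13 did not exceed 1.02 normalized counts, and the other 2 neighbours are not analysed here.

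The genes whose log2 levels were most like Cldn6 over the 21 samples were Kif12 (Pearson r = 0.926), Prdm16 (0.924), Cdcp1 (0.921), Tcp11l1 (0.919), Hyal2 (0.918) and Homer2 (0.911), and the same 6 came first after removing the mean of each line. Cdcp1, a transmembrane glycoprotein, ran from 400 to 2141 normalized counts in parental cells and reached 44.5 at most in other states, and Homer2 ran from 15.8 to 4702 and reached 16.3. Kif12 (r = 0.959) and Rps4l (0.927) were most like Cldn4, and Degs2 (0.922) and Fgfr4 (0.906) most like Cldn7. Among the members, Cldn6 was nearer to Cldn4 (r = 0.868) and Cldn7 (0.828) than to Cldn2 (0.456), Cldn3 (0.367) or its neighbour Cldn9 (0.09). These correlations describe samples that share lines and states, and a gene high in parental cells alone gives a high value.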

How the data were processed

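RNA of 21 samples from 6 lines in 4 states was used, grouped by the state and line in the labels. A further allele that all lines share and some list genes are not reported here. The authors deposited 1 table of signal values, namely gene-level counts normalized with DESeq2 1.18 after salmon 0.12 had quantified the reads, per the labels; the build was mm10. Depth was judged from the spacing of values below 12 normalized counts, of which 48.2% to 70.5% lay on the step within 0.03 of it, too few for a test on whole reads. It was 24.1 to 42.6 M reads (M for mega). Samples ran on more than 1 sequencer model, not assigned to samples in the sources used here, so no comparison within batches was possible.

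A pseudocount of 1 was added before log2 was taken, and the 19300 genes with at least 10 normalized counts in at least 3 samples were tested with limma 3.58.1 (R 4.3.3; 1 fit of all 4 states, eBayes with a trend), with Benjamini-Hochberg adjustment. Calls needed an adjusted p below 0.01 and a log2 difference above 1 or below -1. The samples pair by cell line: deviations from the state means correlated within lines at 0.241 on average between resistant and parental cells (0.159 to 0.352) and at 0.457 between P12 and resistant cells. Read intervals use the exact 95% method for 2 counts. The read numbers were estimated by rounding each value to the step, so they and the intervals are approximate. Steps were tested on simulated data. Gene places are from GENCODE M21, start-site windows from RefSeq. Python 3.11.15, pandas 2.3.3, scipy 1.17.1 and matplotlib 3.10.9 were used.

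Members and lists were chosen with earlier results of these data known. Named genes are the members, list genes past the threshold (at most 6 per list), Cdh1, Ocln, Tjp1, Epcam, Grhl2 and Zeb1, the neighbours, and the genes most like called claudins; Cldn15 and other list genes called only with the block or discussed without a call (Snai1, Snai2, Twist1, Zeb2, Klf4) were named after their values were seen. Marker genes and checks named in the depth paragraph were also named for what they mark. Alternatives were pseudocounts of 0.5 and 8, no filter, a mean of at least 100, rescaling by upper quartile, blocking on the line, no trend, an adjusted p below 0.05, the compared states alone with and without the block, and each line left out.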

Additional observations from a re-analysis of the deposited data

Results flagged for a closer look

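In 30 groups of 6 samples, log2 values were searched for a lone sample well outside its state, and 4 were found. The nominal chance rate of about 1 in 20 does not hold for groups tied at 0. There, as for Cldn6 in P12, any single value above 0 is flagged, so the 4 cannot be set against chance. On the deposited scale 14 were found. Parental line #9 stood apart in Cldn2, with 33.2 normalized counts against 3265 to 8999 in the other 5 lines. P12 cells of line #10 held 4.15 normalized counts of Cldn6, from 5 reads, where the other 5 P12 samples were at 0. Resistant line #7 held 22978 normalized counts of Cldn18, against 0 to 7.68 in the others. Parental line #7 held 38.4 normalized counts of Cldn23, against 1.81 to 6.16.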

How the results depend on the processing

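The 3 claudins called lower in resistant than in parental cells and the 0 called between P12 or P5 and resistant cells stayed within 1.5 times under each alternative run. Between P12 and parental cells the count of 2 went to 1 (Cldn6) with a pseudocount of 8, no filter, a mean of at least 100, no trend, and the compared states alone with or without the cell line as a replicate block, and ran from 1 to 3 with 1 line left out, where leaving out #3, #4, #6 or #7 gave 1. With the replicate block in the full fit it was 3. For P5 against parental cells the count of 1 became 0 in the compared states alone with the replicate block, a fit with few residual degrees of freedom. The block changed no other count of calls.

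Of 705 alternative values of single claudins, 660 kept their direction and side of the threshold, 11 lost a call, 5 gained one and 29 changed sign; none of those 29 was called. With the upper quartile, Cldn12 came to 0.033 (P12 against parental) and Cldn9 to 0.021 (P5 against parental). With the cell line as a replicate block, P5 against parental cells gave 0.15 for Cldn1, -0.055 for Cldn12 and -1.32 for Cldn18. In the compared states alone with the block these were -0.22 for Cldn12 and -1.06 for Cldn18, and Cldn1 was 0.091 in P5 against resistant cells. With 1 line left out, the log2 difference of Cldn12 ran from -0.17 to 0.053 (resistant against parental), -0.054 to 0.12 (P12 against resistant), -0.089 to 0.12 (P12 against parental), -0.036 to 0.18 (P5 against resistant) and -0.070 to 0.23 (P5 against parental). That of Cldn6 in P12 against resistant cells ran from -0.70 to 0.24, and P5 against parental cells ran from -1.40 to 0.58 for Cldn1, -4.22 to 1.79 for Cldn2, -0.45 to 0.30 for Cldn9 and -2.09 to 3.25 for Cldn18. The cause of these changes was not tested. Low claudins are limited by depth: Cldn4, Cldn7, Cldn9 and Cldn23 sat near the floor of 3 reads in most treated samples.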
